A study of Mus musculus with 16 samples.

Results

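The genes described here are 8 non-clustered protocadherins of the mouse, Pcdh1, Pcdh7, Pcdh8, Pcdh9, Pcdh10, Pcdh17, Pcdh18 and Pcdh20, out of 57132 genes in the count files. They were selected on measured values: the family was chosen by name because the counts of Pcdh7 had been seen to be far lower in batch 2 than in batch 1, so every difference between batches given for these genes is a description without a test. RNA was measured in 12 libraries of cultured mouse neural stem cells under self-renewing conditions, labelled GF, 6 labelled gRNA, which had the treatment called TAPIR, and 6 labelled control, which did not. Each library carries a batch label, and both batches hold 3 gRNA and 3 control libraries, numbered here 4 to 6 in batch 2 and 1 to 3 in batch 1. The labels explain neither TAPIR, nor what the guide RNA targets, nor what separates the batches, and name no mouse strain, sex or age. A targeted gene could therefore not be checked. Whether the 3 libraries of a group in a batch came from different cultures is not stated, so a p-value here reflects only how much these samples vary, and that variation may be technical. Ribosome footprints of 4 further libraries were deposited as positions on transcripts, under library names of which 0 match a label, and are not analysed here.

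Protocadherins are cell adhesion proteins with cadherin repeats outside the cell, a single membrane span and a cytoplasmic tail of their own kind. Unlike the clustered protocadherins, which are made from shared gene arrays, the non-clustered ones are separate genes, most of which fall into the δ1 group (Pcdh1, Pcdh7, Pcdh9 and Pcdh11x) and the δ2 group (Pcdh8, Pcdh10, Pcdh17, Pcdh18 and Pcdh19). They bind the same protein on the neighbouring cell, mostly weakly, and are known in the developing brain for regional patterns of expression and for parts in cell sorting, migration, axon growth and synapse formation.

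The depth was 8414028 to 19454390 counts in genes per library, and in 0 of the 66 library pairs were the counts identical. Levels are CPM, counts scaled to library size, and compare libraries for a gene, not genes with each other. Of the variance left within batches, 21.6% lay in control 6 and 12.8% in gRNA 6, with 4.88% to 9.74% in each remaining library. In batch 1, gRNA 3 and control 3 lay together at one end of the first principal component (32.9 and 34.5). At the other end lay gRNA 1 and control 2 (−26.9 and −28.7), with the lowest depths of the batch, 10515276 and 8414028 counts. These were left out singly but not as a pair. Between the ends lay control 1 and gRNA 2 (−8.23 and −3.51). Control 6 stood alone in batch 2 (68.4, against −20.9 to −2.37). For many values that moved strongly when gRNA 3, control 3, gRNA 6 or control 6 was left out, the value without them is given beside it or with the other alternatives. Reads in no annotated feature were 8.83% to 12.7% of the total in batch 2 libraries, against 19% to 25.1% in batch 1. Reads left uncounted for other reasons, such as ambiguous ones, are not in these shares. The part of these reads in the differences between batches was not tested.

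Pcdh7 was near 0 in batch 2 and well measured in batch 1. Pcdh7 is a δ1 protocadherin, also called NF-protocadherin, with a part in axon growth and in the early ectoderm, known best from Xenopus. In batch 2 it had 0, 0 and 2 counts in gRNA 4, 5 and 6, and 0 counts in each of the 3 controls. In batch 1 it had 1576, 3177 and 3029 counts in the gRNA libraries and 2353, 1223 and 3288 in the controls. No library lay between these extremes: the single library of batch 2 with any count, gRNA 6, was at 0.145 CPM, and the lowest library of batch 1, gRNA 1, was at 157.3 CPM.

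Taken over the libraries of a group, Pcdh7 in gRNA cells came to 2 counts in batch 2 and 7782 counts in batch 1, a ratio of CPM of 0.00024 (95% interval 2.9e-05 to 0.000866, which covers counting error only). In control cells 0 counts stood against 6864. With a floor of 3 counts over the batch 2 controls (0.0693 CPM), Pcdh7 was 2426-fold lower there than in the batch 1 controls. The 95% interval for counting error alone, used above for gRNA cells, reached down to 1972-fold in controls. The fitted log2 fold change over all 12 libraries was −12.4, the 6th lowest of 17704 genes tested, but it rests on the prior count that the fit adds and is not a measured size. Within batch 1, Pcdh7 was the steadiest of the 7 members tested there, with a coefficient of variation over the 6 libraries of 5.07%, against 6.01% to 39.5% for the other 6.

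**Figure D1:**
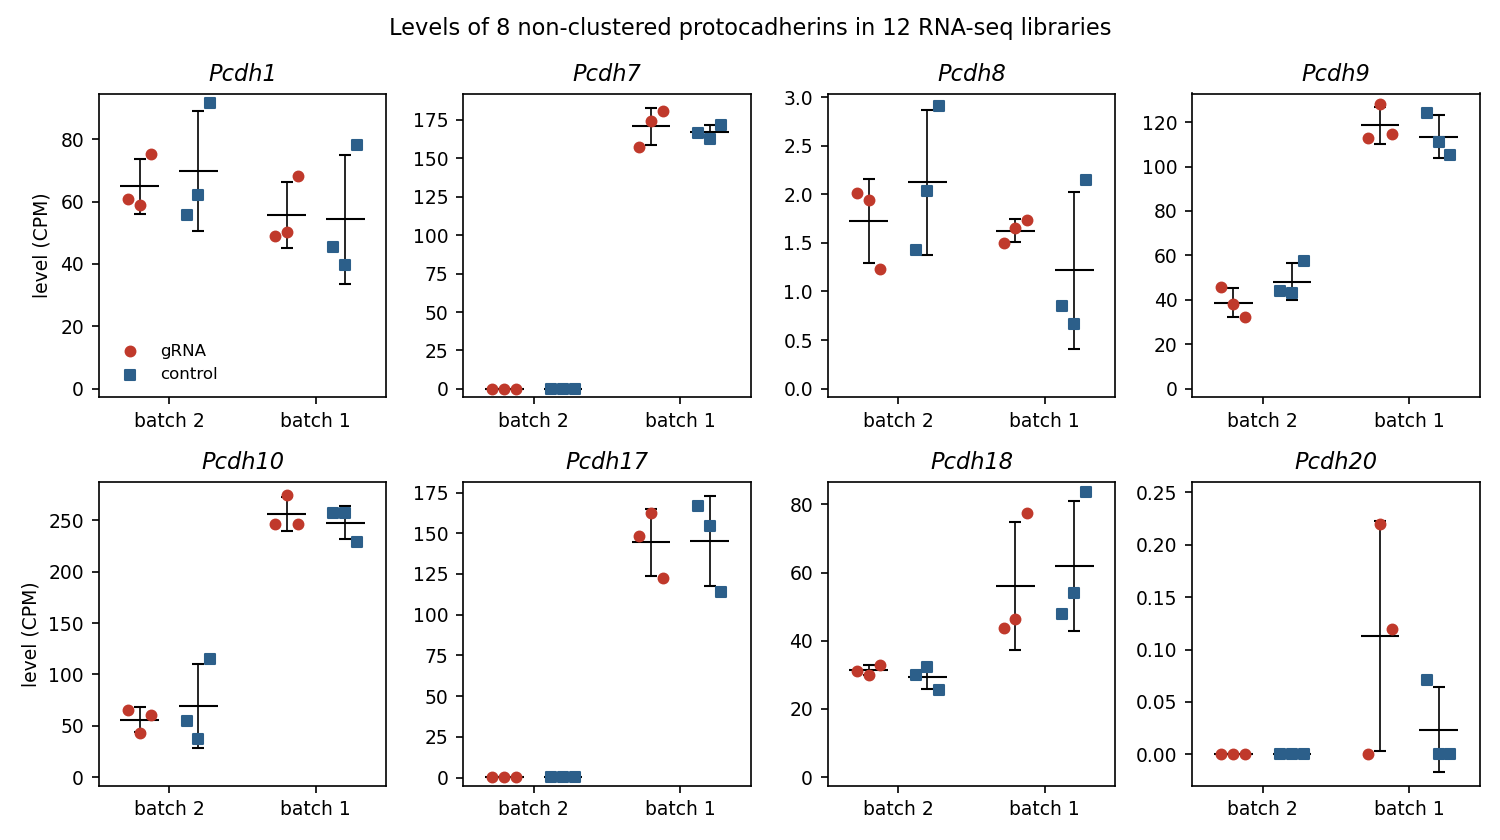
Levels of the 8 protocadherins in each of the 12 libraries, in CPM on a linear axis with its own scale in each panel, batch 2 left of batch 1 and gRNA left of control within each batch. Points are libraries, and bars are the mean and SD of 3 libraries; Pcdh7 and Pcdh17 lie near 0 in batch 2, and the gRNA and control points of a batch overlap in every panel.

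Pcdh17 showed a similar contrast. Pcdh17 is a δ2 protocadherin that takes part in axon extension and in presynaptic assembly in the basal ganglia of mice. In batch 2 it had 3, 6 and 2 counts in the gRNA libraries and 2, 2 and 1 in the controls. In batch 1 it had 148.4, 162.4 and 122.3 CPM in the gRNA libraries and 167, 154.5 and 114.2 CPM in the controls. The 16 counts of batch 2 stood against 12200 in batch 1, which made Pcdh17 813-fold lower in batch 2 (95% interval 501 to 1423, counting error only). Unlike Pcdh7, it had at least 1 count in all 6 libraries of batch 2, though most held fewer than 3. Within batch 1 its lowest values were those of gRNA 3 and control 3, the pair at one end of the first principal component. Without that pair the fitted log2 difference between batches was −9.71, against −9.63 with it.

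Of the δ1 members, Pcdh9 was lower in batch 2 and Pcdh1 overlapped between batches. Pcdh9 is an adhesion protein of developing cortex and retina. It had 45.7, 38.3 and 32.3 CPM in gRNA and 44.1, 43 and 57.6 CPM in control libraries of batch 2. In batch 1 it had 113, 128.1 and 114.6 CPM in gRNA and 124.1, 111 and 105.3 CPM in control libraries. All 6 libraries of batch 2 lay below all 6 of batch 1, with a log2 difference of −1.42 (SE 0.11).

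Pcdh1, an adhesion protein of airway epithelium and brain, had 60.8, 59 and 75.1 CPM in gRNA and 55.8, 62.05 and 91.7 CPM in control libraries of batch 2. In batch 1 it had 48.9, 50.1 and 68.1 CPM in gRNA and 45.4, 39.7 and 78 CPM in control libraries. Its highest libraries were gRNA 6 and control 6 in batch 2 and gRNA 3 and control 3 in batch 1. The log2 difference between batches was 0.29 (SE 0.17), and it moved either way with these libraries: it was 0.58 (SE 0.14) without gRNA 3 and control 3, 0.11 (SE 0.16) without gRNA 6 and control 6, and 0.17 without control 6 alone.

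Among the δ2 members, Pcdh10 and Pcdh18 were lower in batch 2. Pcdh10, known as OL-protocadherin, guides striatal axons and is linked to removal of synapses. It had 65.3, 42.9 and 60.2 CPM in gRNA and 55.2, 37.1 and 115.5 CPM in control libraries of batch 2. In batch 1 it had 247, 275.1 and 246.4 CPM in gRNA and 257.1, 256.9 and 229.4 CPM in control libraries. The log2 difference was −2.01 (SE 0.215), and −2.29 without control 6, which was the highest of batch 2 and still under every library of batch 1. The coefficient of variation of Pcdh10 was 44.5% in batch 2 and 6.01% in batch 1.

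Pcdh18, which binds the adaptor protein Dab1, had 31.2, 30.1 and 32.9 CPM in gRNA and 29.85, 32.3 and 25.6 CPM in control libraries of batch 2. In batch 1 it had 43.8, 46.5 and 77.55 CPM in gRNA and 48, 54 and 83.7 CPM in control libraries. The batches did not overlap, and the log2 difference was −0.96 (SE 0.16), or −0.62 without gRNA 3 and control 3, which held its highest values.

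Pcdh8 and Pcdh20 were scarce in both batches. Pcdh8, known as arcadlin, is induced by neuronal activity and takes N-cadherin off the synapse. It had 36, 32 and 17 counts in gRNA and 19, 33 and 40 in control libraries of batch 2, against 15, 30 and 29 in gRNA and 12, 5 and 41 in control libraries of batch 1. The ranges overlapped (1.23 to 2.91 CPM in batch 2 and 0.664 to 2.14 CPM in batch 1), and the log2 difference between batches was 0.38 (SE 0.28), or 0.72 (SE 0.32) without gRNA 3 and control 3 and 0.22 without control 6. Pcdh20 had 0 counts in all libraries of batch 2, which allows up to 0.0328 CPM over the 6, and 7 counts in batch 1, of which gRNA 2 held 4, gRNA 3 held 2 and control 1 held 1. It did not pass the filter on low counts in any comparison.

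Counted together, 5 of the 7 members tested (Pcdh7, Pcdh9, Pcdh10, Pcdh17 and Pcdh18) were called lower in batch 2 and 0 higher, where 33.1% of all 17704 genes were called lower and 28.4% higher. The same 5 had all libraries of batch 2 below all of batch 1, as did 24.3% of all genes. Since this contrast was used to choose the genes, the calls of the members are no test of them, and nothing is read from the calls or the shares. The median log2 difference was −1.42 over the 7 members and −0.03 over all genes. In bulk RNA, fewer cells of a type and less RNA per cell cannot be told apart.

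**Figure D2:**
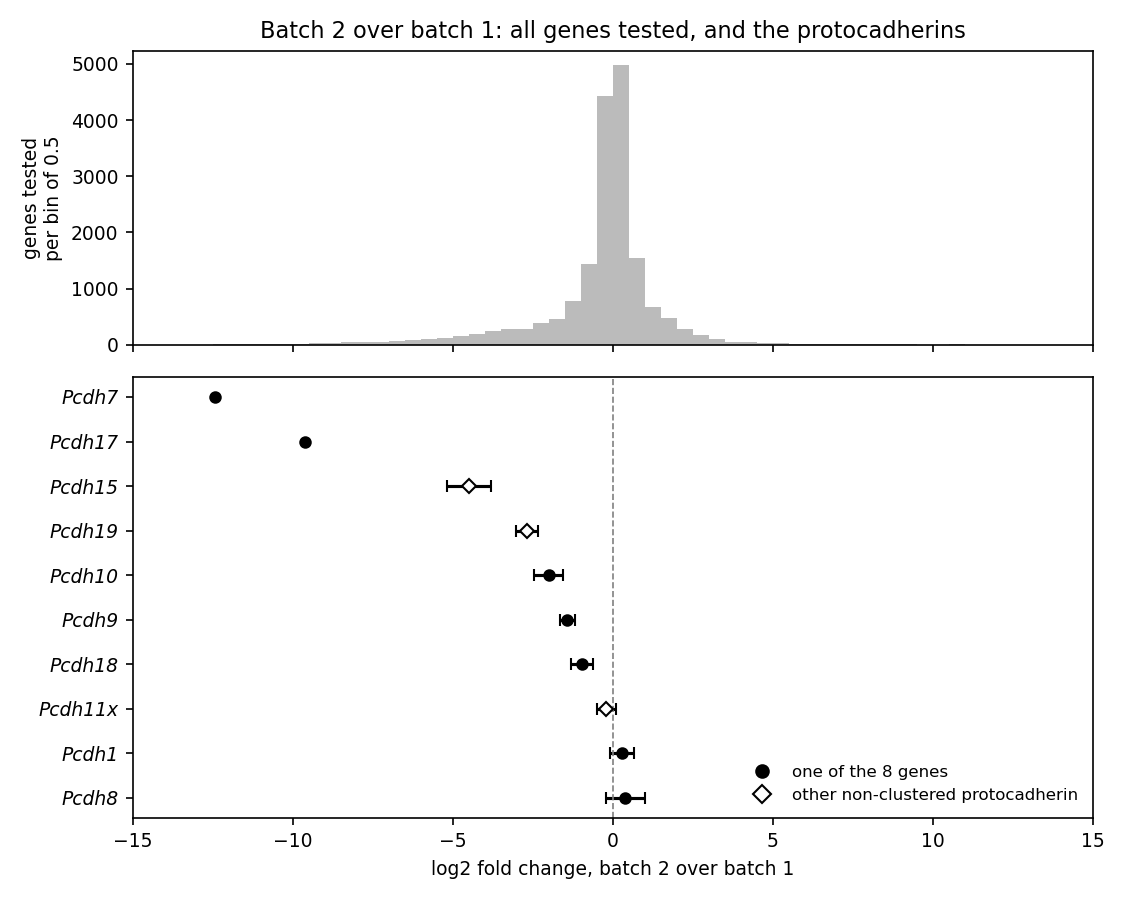
The upper panel counts all 17704 genes tested by their fitted log2 fold change of batch 2 over batch 1, in bins 0.5 wide, and the lower panel gives the fitted log2 fold changes of batch 2 over batch 1 for the protocadherins tested, with 95% intervals from edgeR; filled circles are the 7 members that passed the filter and open diamonds the other non-clustered protocadherins. Pcdh7 and Pcdh17 are drawn without an interval because their values, −12.4 and −9.63, rest on the few counts of batch 2 and the prior count. The intervals show the spread of the fit and are no test, since this contrast was used to choose the genes.

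The 4 related genes outside the named set behaved in different ways. Pcdh19, a δ2 protocadherin on the X chromosome whose mutations cause an epilepsy in people, averaged 23.1 ± 6.77 CPM in batch 2 and 147.7 ± 16.7 CPM in batch 1 (SD, n = 6 libraries each). Pcdh15, a tip-link protein of hair cells, had 34 counts in batch 2 and 760 in batch 1. Pcdh11x, the remaining δ1 gene, averaged 81.3 ± 13.6 CPM in batch 2 and 94.1 ± 20.2 CPM in batch 1, and its libraries overlapped. Pcdh12, a protocadherin of endothelial cells, had 5 counts in batch 2 and 12 in batch 1 and was not tested.

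Start regions of 5 members are shown because the counts of these genes differ so unevenly between batches: Pcdh7 and Pcdh17, near 0 in batch 2, Pcdh10 and Pcdh18, lower but present, and Pcdh8, scarce in both. Each covers 250 bases before to 50 after a RefSeq transcript start on GRCm38.p6, an older build than the GRCm39 of the counts, and is read 5′ to 3′ on the gene's strand. Capitals mark 3 motifs on either strand: the CCAAT box (which reads ATTGG where it lies on the other strand), the TATA box as TATAAA, and the repeat GAGAGA, whose matches may overlap. The regions are chr5:57717831-57718130 (+) for Pcdh7, chr14:84443313-84443612 (+) for Pcdh17, chr3:45378148-45378447 (+) for Pcdh10, chr3:49757267-49757566 (−) for Pcdh18 and chr14:79771263-79771562 (−) for Pcdh8.
Pcdh7: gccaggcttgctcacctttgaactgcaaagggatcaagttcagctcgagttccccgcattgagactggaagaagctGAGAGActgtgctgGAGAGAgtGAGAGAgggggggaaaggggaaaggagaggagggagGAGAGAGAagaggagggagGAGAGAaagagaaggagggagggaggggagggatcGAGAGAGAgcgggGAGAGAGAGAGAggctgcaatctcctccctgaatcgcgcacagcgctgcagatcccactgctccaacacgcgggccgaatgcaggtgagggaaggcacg
Pcdh17: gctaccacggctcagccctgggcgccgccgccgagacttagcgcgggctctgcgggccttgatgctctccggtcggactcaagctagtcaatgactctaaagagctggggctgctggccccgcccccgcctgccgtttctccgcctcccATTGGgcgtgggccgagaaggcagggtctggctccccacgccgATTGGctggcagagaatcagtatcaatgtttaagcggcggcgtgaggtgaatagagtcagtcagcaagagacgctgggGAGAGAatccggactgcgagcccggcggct
Pcdh10: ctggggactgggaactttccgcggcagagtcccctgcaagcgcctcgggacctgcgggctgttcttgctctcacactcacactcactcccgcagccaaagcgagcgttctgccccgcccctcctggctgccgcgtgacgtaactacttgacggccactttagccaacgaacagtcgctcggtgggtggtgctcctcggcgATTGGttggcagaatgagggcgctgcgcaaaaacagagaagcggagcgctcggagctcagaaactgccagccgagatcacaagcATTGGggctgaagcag
Pcdh18: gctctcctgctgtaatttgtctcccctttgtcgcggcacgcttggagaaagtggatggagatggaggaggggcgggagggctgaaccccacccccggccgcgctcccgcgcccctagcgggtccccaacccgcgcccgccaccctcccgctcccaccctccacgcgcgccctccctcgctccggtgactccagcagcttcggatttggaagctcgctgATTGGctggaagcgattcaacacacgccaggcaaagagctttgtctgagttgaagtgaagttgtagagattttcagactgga
Pcdh8: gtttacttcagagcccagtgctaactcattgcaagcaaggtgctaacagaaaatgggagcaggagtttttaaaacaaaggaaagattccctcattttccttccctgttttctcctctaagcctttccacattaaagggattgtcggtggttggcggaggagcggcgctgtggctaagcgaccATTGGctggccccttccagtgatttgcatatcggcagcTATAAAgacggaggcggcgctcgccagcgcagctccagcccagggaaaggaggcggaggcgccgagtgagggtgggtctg

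Of the start regions in the table, that of Pcdh7 had the highest share of A and G among the 7 members with an entry. They made up 70.7% of it, a share that 99.7% of the 32851 promoters in the table did not reach, and its longest run of A and G was 88 bases. It held 12 matches to GAGAGA, a motif searched for after the sequence had been seen; 23.9% of all promoters held at least 1 match and 0.13% held 10 or more. Pcdh9, not shown, came next with up to 57.3% A and G, a run of 39 bases and 3 matches to GAGAGA. The Pcdh7 region held no CCAAT, while Pcdh17 and Pcdh10 had 2 matches each and Pcdh18 and Pcdh8 had 1 each. At least 1 match stood in 37.4% of all promoters. TATAAA stood in the Pcdh8 region alone of the 5, and in 13.6% of all promoters. Pcdh17, Pcdh10 and Pcdh18 were rich in CpG, with observed over expected ratios of 0.82, 0.82 and 0.78, against 0.49 for Pcdh7, 0.64 for Pcdh8 and a median of 0.38 over all promoters. These matches are letters in a window and no measure of binding.

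The comparison of gRNA with control cells, which the series was designed for, called none of the protocadherins. With batch as a term, edgeR's quasi-likelihood test with Benjamini-Hochberg adjustment called 0 of 7 members tested and 0 of 17704 genes (0%), and 230 genes had an unadjusted p under 0.05. DESeq2 and limma-voom also called 0 genes, with 216 and 232 at an unadjusted p under 0.05. Without any effect, a share of about 0.05 of the genes tested would be expected there. These counts, and those given below for each batch and for the interaction, lie under that share. The reason was not tested. In Pcdh7 the log2 fold change of gRNA over control was 0.05 (SE 0.14, 95% interval −0.25 to 0.35, edgeR adjusted p = 0.9998, n = 6 per group). For Pcdh9 it was −0.12 (SE 0.11, interval −0.355 to 0.114), or −0.03 without control 6 and −0.05 without gRNA 6, and for Pcdh10 −0.12 (SE 0.21, interval −0.57 to 0.325). Pcdh10 turned to 0.15 without control 6, the library with its outlying value. The remaining 4 lay between −0.04 for Pcdh1 and 0.04 for Pcdh17, with intervals that reached from −0.40 to 0.36 for Pcdh1, Pcdh17 and Pcdh18 and from −0.61 to 0.60 for Pcdh8. These intervals do not show that the levels are alike, and a change of 1.5-fold in Pcdh8, for example, lies inside its interval.

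In batch 1 Pcdh7 and Pcdh17 could be measured, and their means in gRNA and control differed by less than the SD. Pcdh7 averaged 170.9 ± 12.2 CPM in gRNA and 166.9 ± 4.73 CPM in control libraries (SD, n = 3 each), or 0.04 on the log2 scale (95% interval −0.17 to 0.26). Pcdh17 averaged 144.4 ± 20.3 CPM in gRNA and 145.3 ± 27.6 CPM in control libraries, with an interval of −0.36 to 0.36. Pcdh9 averaged 118.6 ± 8.31 CPM in gRNA and 113.5 ± 9.64 CPM in control libraries, and Pcdh10 256.2 ± 16.4 and 247.8 ± 15.9 CPM in the same order. Pcdh8 had the highest log2 value, 0.31 (SE 0.42, 95% interval −0.64 to 1.26), from 1.63 ± 0.119 CPM in gRNA and 1.22 ± 0.806 CPM in control libraries, and it was 1.07 (SE 0.39) without control 3 and 1.01 (SE 0.41) without gRNA 3 and control 3. Pcdh18 was at −0.14 (SE 0.26), or −0.46 without gRNA 3 and 0.15 without control 3, and Pcdh1 at 0.03 (SE 0.25), or −0.15 without gRNA 3 and 0.39 without control 3. Of 7 members tested in batch 1, edgeR called 0, as it called 0 of 16988 genes (0%), with 147 genes under 0.05 before adjustment. By DESeq2 the count was 0 (57 before adjustment) and by limma-voom 0 (157). The gRNA and control libraries overlapped for all 7 members tested, while 5.03% of all genes tested did not overlap.

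In batch 2 Pcdh7, Pcdh17 and Pcdh20 fell under the filter, and 5 members were tested. Pcdh9 averaged 38.8 ± 6.71 CPM in gRNA and 48.2 ± 8.13 CPM in control libraries (SD, n = 3 each), which put gRNA at −0.30 on the log2 scale (SE 0.17, 95% interval −0.70 to 0.10). It was −0.17 without control 6 and −0.06 without gRNA 6 and control 6. Pcdh10 averaged 56.2 ± 11.8 CPM in gRNA and 69.3 ± 41 CPM in control libraries, a log2 fold change of −0.28 (SE 0.37) that turned to 0.28 without control 6. Pcdh18 averaged 31.4 ± 1.45 CPM in gRNA and 29.3 ± 3.37 CPM in control libraries, Pcdh1 65 ± 8.81 and 69.9 ± 19.2 CPM and Pcdh8 1.73 ± 0.431 and 2.125 ± 0.746 CPM, again gRNA and then control. No member passed, as 0 of 15647 genes did (0%, smallest edgeR adjusted p = 0.9976, 116 genes under 0.05 before adjustment). By DESeq2 the count was 0 (119 before adjustment) and by limma-voom 0 (104). The libraries of gRNA and control overlapped for all 5 members tested, while 5.16% of all genes tested did not overlap.

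**Figure D3:**
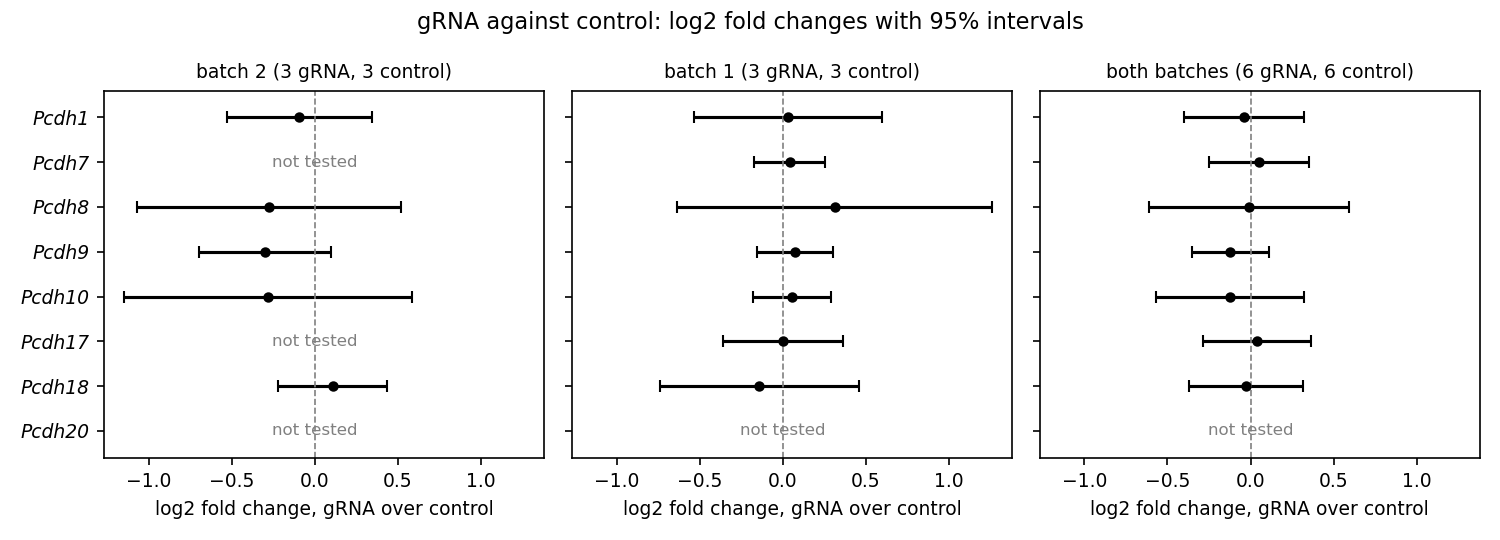
Log2 fold changes of gRNA over control with 95% intervals from edgeR, over both batches and in each batch, for each of the 8 protocadherins. All intervals include 0; a member that did not pass the filter on low counts in a comparison is marked as not tested.

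Whether the gRNA effect differed between the batches was tested with an interaction term, for which edgeR called 0 of 7 members and 0 of 18279 genes (0%), with 236 genes under 0.05 before adjustment. By DESeq2 the count was 0 (180 before adjustment) and by limma-voom 0 (213). The value nearest to passing among the members was that of Pcdh9, −0.38 on the log2 scale (SE 0.20, 95% interval −0.81 to 0.06, edgeR adjusted p = 0.9999). For Pcdh9 it was −0.23 without control 6 and −0.12 without gRNA 6 and control 6. The value of Pcdh7, 2.53, rested on the 2 counts of gRNA 6 in batch 2, and was −0.04 without that library.

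**Figure D4:**
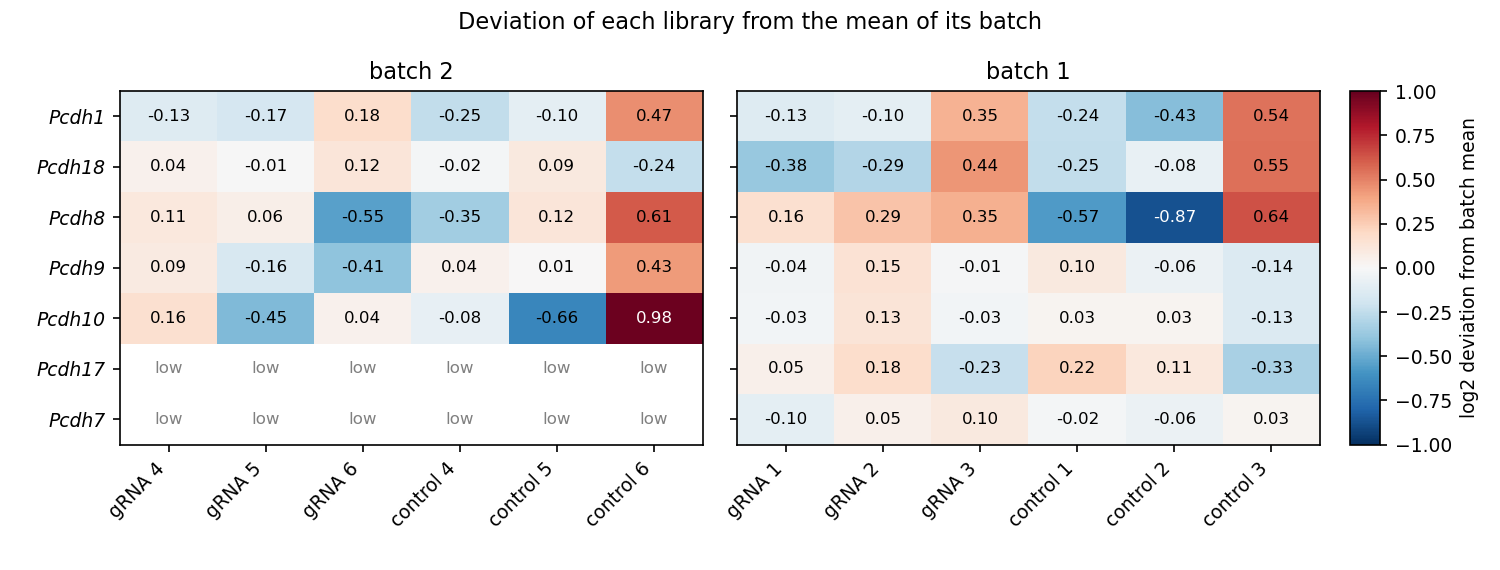
Deviation of each library from the mean of the 6 libraries of its batch in log2 CPM, for 7 protocadherins (rows) in the libraries of batch 2 (left) and batch 1 (right), gRNA left of control; cells marked low had too few counts, and Pcdh20 is not drawn. Control 6 stands out in Pcdh10 at 0.98, and gRNA 3 and control 3 in Pcdh1 and Pcdh18.

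Within batches the members did not move as a block. Control 6 was the highest library of batch 2 for Pcdh10, Pcdh9, Pcdh1 and Pcdh8 and the lowest for Pcdh18. In batch 1, gRNA 3 and control 3 held the highest values of Pcdh1, Pcdh8 and Pcdh18 and the lowest of Pcdh17.

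The chromosomal neighbours of the members were read from the order of genes in RefSeq, by a rule added after the data had been seen. Beside Pcdh7 on chromosome 5, Stim2, a calcium sensor of the endoplasmic reticulum, averaged 204 CPM in batch 2 and 212 CPM in batch 1. On the other side the next gene, G6pd2, was scarce, with 60 counts in batch 2 and 6 in batch 1. The gene after it, Arap2, a GTPase-activating protein, averaged 162 and 362 CPM, batch 2 first. A long non-coding gene that overlaps Pcdh7, 4932441J04Rik, had 0 counts in batch 2 and 318 in batch 1. Beside Pcdh17 on chromosome 14, Diaph3, a formin of the actin skeleton, averaged 77.3 CPM in batch 2 and 94.2 CPM in batch 1, and Olfm4 on the other side had 35 counts in batch 2 and 9 in batch 1. The overlapping 9630013A20Rik had 0 counts in batch 2 and 50 in batch 1. So both genes near 0 in batch 2 had a neighbour at a similar level in both batches, and both had an overlapping transcript that was at 0 in batch 2; the strand setting of the counting is not given, so reads of overlapping genes cannot be told apart.

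Pcdh10 and Pcdh18 lie on chromosome 3 with only Pabpc4l between them among the protein-coding genes, and genes on both sides were lower in batch 2 as well. D3Ertd751e averaged 9.41 CPM in batch 2 and 23.9 CPM in batch 1. Pabpc4l, a poly(A)-binding protein gene, averaged 0.126 CPM in batch 2 and 3.82 CPM in batch 1. Slc7a11, the cystine transporter, averaged 13.9 CPM in batch 2 and 204 CPM in batch 1. Beyond this run, Sclt1 averaged 25.2 CPM in batch 2 and 23.8 CPM in batch 1, and Noct 45.5 and 54.8 CPM in the same order. The run of 5 genes from D3Ertd751e to Slc7a11 was picked out after its values were seen and was not tested.

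**Figure D5:**
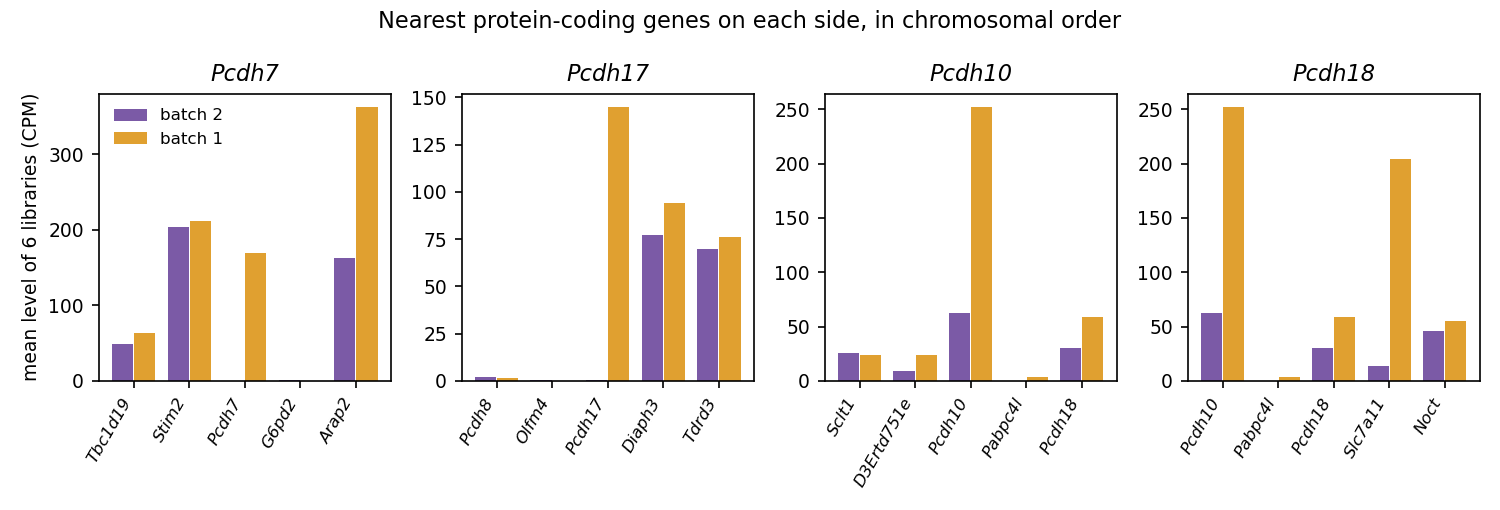
Mean levels of Pcdh7, Pcdh17, Pcdh10 and Pcdh18 and of the nearest protein-coding genes on each side in RefSeq order, in CPM, as bars over 6 libraries with batch 2 left of batch 1 and an axis of its own in each panel. Stim2 beside Pcdh7 (204 CPM in batch 2 and 212 CPM in batch 1) is near the same height in both batches, and Slc7a11 beside Pcdh18 (13.9 CPM in batch 2 and 204 CPM in batch 1) is not.

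Genes with the profile most like that of a member were found by the root mean square difference of log2 levels, each centred on its mean over the 12 libraries, among 11519 genes. For Pcdh7 these were the collagen gene Col5a2 (0.485), the fibrinogen-like Fgl2 (0.496), the ubiquitin ligase Trim25 (0.498), the antiviral zinc finger gene Zc3hav1 (0.542) and Parp12 (0.552). Col5a2 had 0 CPM in batch 2 and 88.1 CPM in batch 1, and Trim25 0.0196 and 113.1 CPM, batch 2 first, so these profiles are alike in being near 0 in the same batch. For Pcdh17 they were Zfp518a (0.304), the pentraxin gene Nptx2 (0.361) and Slitrk5 (0.366), a synaptic adhesion gene. For Pcdh10 they were Tshz2 (0.195), Apc2 (0.203) and the actin-binding Palld (0.21), and for Pcdh9 Ptprn2 (0.115), Emx2os (0.118) and Cc2d2a (0.136). Pcdh18 was closest to Chml (0.116), the planar polarity gene Vangl1 (0.163) and the adenylate cyclase Adcy1 (0.177). Pcdh1 was closest to Tpbg (0.0965), Sobp (0.106) and Lrch1 (0.115). All of these profiles include the difference between batches, and the libraries are the same, so the distances are a description.

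Related genes were read against the shares of all genes called between batches, 28.4% higher and 33.1% lower. Among 16 reported intracellular partners, such as the WAVE complex that joins protocadherin tails to actin, edgeR called 4 higher and 2 lower in batch 2 at an adjusted p under 0.05. Of the 3 with the highest CPM, Nckap1, a WAVE complex subunit, averaged 324 ± 23.8 CPM in batch 2 and 342 ± 60.8 CPM in batch 1 (SD, n = 6 libraries each). Cyfip1, also a subunit, averaged 259 ± 36 and 272 ± 29.3 CPM, batch 2 first, and Abi2 fell to 241 ± 9.26 CPM in batch 2, against 362 ± 37.1 CPM in batch 1. Dab1, the partner of Pcdh18 named above, was chosen after its values were seen: it averaged 155 ± 11.2 CPM in batch 2 and 82.3 ± 7.26 CPM in batch 1. The median log2 difference of the 16 was −0.001, against −0.03 for all genes.

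Of 10 cadherins tested out of 19 in a list of classical and type II ones, 2 rose and 7 fell in batch 2. The list also holds Cdh13, an atypical cadherin, among those that fell. Of all genes, 28.4% were called higher and 33.1% lower. The same shares stand behind the counts of catenins and giant cadherins that follow. Those with the highest CPM were Cdh4, known as R-cadherin, which rose to 471 ± 31.6 CPM in batch 2, against 372 ± 25.8 CPM in batch 1, and Cdh2, the N-cadherin of neural progenitors, at 222 ± 34.9 and 233 ± 25.2 CPM, batch 2 first. Cdh20 fell to 126 ± 9.66 CPM in batch 2, against 214 ± 26.4 CPM in batch 1. Of the genes named after their values were seen, Cdh19 had 6 counts in batch 2 and 3861 in batch 1, and Cdh11 had 71 and 4511. Cdh24, named in the same way, rose to 57.3 ± 8.75 CPM in batch 2, against 24 ± 2.35 CPM in batch 1. Of 6 catenins, 2 rose and 1 fell, and of the 3 with the highest CPM Ctnnb1, the β-catenin of adherens junctions, averaged 291 ± 32.5 CPM in batch 2 and 291 ± 74.2 CPM in batch 1. Ctnnd2 averaged 312 ± 34.2 and 360 ± 38.9 CPM, batch 2 first, and Ctnna1 rose to 288 ± 35.2 CPM in batch 2, against 245 ± 29.4 CPM in batch 1. Of 9 genes tested out of 10 in a list of giant and atypical cadherins, 4 rose and 2 fell. Fjx1, also on that list and not called, is no cadherin. Fat1, a giant adhesion protein, averaged 769 ± 90.5 and 795 ± 103 CPM, batch 2 first. Celsr2, a planar polarity protein, rose to 370 ± 35.3 CPM in batch 2, against 198 ± 23 CPM in batch 1. Dchs1 rose to 294 ± 61.1 CPM in batch 2, against 210 ± 54 CPM in batch 1. For gRNA against control, edgeR called 0 genes in these lists and in the marker lists.

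Markers of the labelled cell type were present in both batches: the summed level of 13 neural stem and progenitor markers was 2520 to 3300 CPM in batch 2 and 2880 to 4580 CPM in batch 1, with none at 0 in a whole group, and edgeR called 1 higher and 7 lower in batch 2. For this and the following marker counts, 28.4% of all genes were called higher and 33.1% lower. Summed levels of other cell types' markers differed between batches too. The 7 endothelial and mural markers summed to 3.27 to 8.3 CPM in batch 2 and 63.2 to 167 CPM in batch 1, mostly through Acta2, the smooth muscle actin, at 0.544 CPM in batch 2 and 107 CPM in batch 1; edgeR called 0 of 4 tested higher and 3 lower, while Kdr, a receptor of endothelial cells, averaged 3.58 CPM in batch 2 and 2.8 CPM in batch 1, and Cdh5 had 39 and 12 counts, batch 2 first. The 7 mesenchymal markers summed to 33 to 72.2 CPM in batch 2 and 243 to 346 CPM in batch 1, mostly through Prrx1, at 44.1 and 304 CPM, batch 2 first. Of the 2 mesenchymal markers tested, 1 was called lower, Prrx1, and 1 higher, the collagen Col1a1, at 5.25 CPM in batch 2 and 1.89 CPM in batch 1. Col3a1 and Twist1 were at 0 in all libraries of batch 2 and had 14 and 26 counts in batch 1. The 11 neuronal markers summed to 637 to 785 CPM in batch 2 and 856 to 1190 CPM in batch 1. Most of this sum was Map2, at 659 and 720 CPM, batch 2 first, which was not called. Of 9 tested, 7 were called lower, among them Gap43 at 2.49 and 117 CPM and Elavl4 at 6.42 and 62.8 CPM. The 1 called higher was Tubb3, at 17.2 CPM in batch 2 and 3.3 CPM in batch 1. The 7 astrocyte markers summed to 274 to 509 CPM in batch 2 and 542 to 865 CPM in batch 1 (2 higher and 4 lower), and the 8 oligodendrocyte lineage markers to 438 to 605 CPM in batch 2 and 289 to 467 CPM in batch 1 (3 higher and 0 lower of 5 tested). The 6 microglial markers summed to at most 2.86 CPM in batch 2 and 6.63 CPM in batch 1 (0 higher and 2 lower of 2 tested). Tmem119, too scarce to be tested, ran the other way, with 40 counts in batch 2 and 1 in batch 1. The part of these cell types in the differences of the protocadherins between batches was not tested.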

How the data were processed

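RNA-seq of 12 libraries of mouse neural stem cells was used. Per the labels' protocols, total RNA went into stranded libraries depleted of ribosomal RNA. Per the submitters' processing notes, the tools for these reads were HTSeq, SAMtools, STAR and Trimmomatic and the build was GRCm39; no source used here gives the strand setting or most versions. What was deposited are raw counts per gene as the authors' counting gave them, for 57132 genes, of which 51880 matched a symbol. Summary lines naming no gene entered neither the library sizes nor the fits. The line for reads in no annotated feature held 8.83% to 25.1% of a library.

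Counts were fitted with edgeR 4.0.16 in R 4.3.3 (filterByExpr with a minimum count of 10, TMM scaling, quasi-likelihood test, Benjamini-Hochberg adjustment at 0.05 over all genes tested). The gRNA effect was fitted over both batches with batch as a term, in each batch, and as an interaction; the batch coefficient was fitted with treatment as a term. CPM are from TMM-scaled library sizes, and intervals for pooled counts cover counting error only. DESeq2 1.42.0, limma-voom (limma 3.58.1) and other filters were alternatives. Start regions came from a RefSeq table on GRCm38.p6, in which 7 of the 8 members had an entry. Each edgeR fit was first run on counts simulated from the means and dispersions of the same model. Such counts hold none of the library structure described above, so that run does not bear on it. Plots were drawn in Python 3.11.15 with matplotlib 3.10.9.

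The genes, the lists and the tests were chosen with earlier results of these data known. Named were all members, the 4 related protocadherins, up to 3 genes with the highest mean CPM of each list, and the genes nearest in profile, 5 for Pcdh7 and 3 for each other member with a mean of at least 50 counts. Some markers were named because they carried most of a sum, were at 0 or ran against it. They were chosen after their values were seen, and other markers of the same kind were not named. Dab1, Cdh11, Cdh19 and Cdh24 were also named after their values were seen. Chromosomal neighbours were named by a rule added after the data had been seen.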

Additional observations from a re-analysis of the deposited data

Results flagged for a closer look

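Pcdh10 in batch 2 was picked out because a single library lay far from the others of its batch: control 6 was at 115.5 CPM, and the other 5 libraries lay between 37.1 and 65.3 CPM. The gap to the next library was 0.64 of the whole range, over the critical value of 0.625 for 6 libraries. Chance alone gives such a gap in about 1 group in 20, and 12 groups were screened. Control 6 was also the library with the largest share of the variance within batches, 21.6%, and its part in this value was not tested.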

How the results depend on the processing

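No alternative gave any of the protocadherins a call in gRNA against control. The count of genes called stayed at 0 except without a low-count filter, where edgeR called 1 gene over both batches, 1 in batch 1, 0 in batch 2 and 42 for the difference between batches. The directions of the small gRNA values were not stable, and the cause of the turns was not tested. Over both batches, Pcdh8 turned to 0.00409 in DESeq2 and 0.0545 in limma-voom, and Pcdh17 to −0.00804 without the batch term. In batch 1, Pcdh17 turned to −0.0126 with RLE size factors, −0.0131 in DESeq2 and −0.00201 with a minimum count of 30.

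Leaving out 1 library at a time gave, over both batches, ranges of −0.124 to 0.124 for Pcdh1, −0.136 to 0.205 for Pcdh8, −0.238 to 0.15 for Pcdh10, −0.0694 to 0.159 for Pcdh17 and −0.149 to 0.134 for Pcdh18. In batch 1 the ranges were −0.15 to 0.394 for Pcdh1, −0.00939 to 0.0977 for Pcdh7, 0.0727 to 1.07 for Pcdh8, −0.15 to 0.114 for Pcdh17 and −0.462 to 0.151 for Pcdh18. In batch 2 they were −0.23 to 0.128 for Pcdh1, −0.487 to −0.00746 for Pcdh8 and −0.576 to 0.279 for Pcdh10. For the difference between batches they were −0.505 to 0.116 for Pcdh1, −0.0367 to 3.08 for Pcdh7, −1.36 to −0.304 for Pcdh8, −0.651 to 0.239 for Pcdh10 and −0.0624 to 0.558 for Pcdh18.

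Leaving out a pair of libraries together was chosen after seeing the data. Without gRNA 3 and control 3, the values over both batches turned to 0.0329 for Pcdh1, 0.139 for Pcdh8 and 0.0023 for Pcdh18, and in batch 1 to −0.0479 for Pcdh17. Without gRNA 6 and control 6, they turned over both batches to 0.022 for Pcdh1, 0.242 for Pcdh8, 0.0207 for Pcdh9 and 0.12 for Pcdh10, and in batch 2 to 0.0138 for Pcdh1, 0.164 for Pcdh8, 0.233 for Pcdh10 and −0.0311 for Pcdh18. The difference between batches turned to −0.0365 for Pcdh7 and 0.184 for Pcdh10.

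Between batches, the 5 members that were lower kept their direction in every alternative run, and the count of genes called was 10528 to 12074 with 1 library left out. Pcdh1 ranged from 0.172 to 0.466 and Pcdh8 from 0.223 to 0.621 there. Over all comparisons, 3 alternative values of the members kept their direction and gained a call. Among them, Pcdh1 was called higher in batch 2 without a low-count filter (0.323) and without control 3 (0.466). Such calls are no test either. Of the alternative values of the members over all comparisons, 49 turned direction, all of them in gRNA against control or its difference between batches. Depth limits Pcdh8 and Pcdh20, and Pcdh7 and Pcdh17 in batch 2. No paired analysis was possible because the RNA-seq labels carry no replicate numbers and the footprint library names match no label; the alternatives planned for footprints were not run.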
